A study of Mus musculus with 12 samples.

Results

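The 39 genes described here are the cytochrome P450 genes of families 1 to 3 in mouse liver. They were chosen by symbol alone: every gene whose annotated symbol is Cyp1, Cyp2 or Cyp3 followed by subfamily letters and a number was taken, and each gene was represented by the probe set with the highest mean log2 signal over the 12 arrays. They are 39 of the 12393 genes measured by a probe set with a single gene symbol. Family 1 contributed 3 genes, family 2 contributed 31 and family 3 contributed 5. The larger subfamilies were Cyp2c with 11 genes, Cyp2d with 7, Cyp3a with 5, and Cyp2b and Cyp2j with 4 each; the Cyp1a subfamily had 2 members, and Cyp1b, Cyp2a, Cyp2e, Cyp2f, Cyp2g and Cyp2s had 1 each. A further 2 probe sets match several P450 genes at once, Cyp2a4 with Cyp2a5 and Cyp3a41a with Cyp3a41b, and these were kept apart.

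Cytochrome P450 enzymes are heme proteins anchored in the endoplasmic reticulum that insert an oxygen atom into their substrates, with electrons passed on from NADPH by a reductase and, for some reactions, by cytochrome b5. Families 1 to 3 carry most of the metabolism of drugs and other foreign compounds in the liver, and they also act on steroids, bile acids, retinoids and arachidonic acid. Many of their genes are controlled by ligand-activated receptors, AHR for family 1, CAR for Cyp2b genes and PXR for Cyp3a genes, and several Cyp2 genes differ between male and female mice through growth hormone. Because the proteins sit in the endoplasmic reticulum, they share their membrane system with the secretory protein expressed in these mice.

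The arrays came from male mice, 6 weeks old, that carry a hepatocyte-specific inducible transgene for human alpha1-antitrypsin, a serum protease inhibitor made by the liver. The M line carries the wild-type form, and the Z line carries the mutant Z form, which is known to misfold and to be retained in the endoplasmic reticulum. Each line was studied without expression of the transgene, in mice given doxycycline at 40 µg/mL in their drinking water from conception onwards (M off, labelled M1, and Z off, labelled Z1), and with expression, in mice given none (M on, labelled M4, and Z on, labelled Z4). Every group has 3 arrays, which the labels call biological replicates. Expression and the absence of doxycycline cannot be told apart in this design, and neither can the form of the protein and the line of mice; no group without a transgene was analysed here. The labels do not say how many founders a line has or which promoter drives the transgene, and the state of the transgene itself was not checked here.

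Signals are linear array intensities, with array medians from 38.8 to 47.2 over 22626 probe sets tested. Pearson correlations of log2 signals between arrays, across the 11313 brighter probe sets, lay between 0.924 and 0.976, a description across genes, which are not replicates. The 8 of 10 hepatocyte markers measured summed to signals between 87099 and 134218 on every array, as the liver label requires. The erythroid list, with 6 of 9 markers measured and none below 16 on all arrays, summed to between 1244 and 1714 in Z off against 242.7 to 454.6 in the other 3 groups. The ratio of the 3′ to the 5′ actin control, a measure of RNA integrity that is higher in degraded RNA, was 2.18 to 2.53 in Z off, 2.72 to 3.89 in M off, 3.09 to 4.38 in M on and 2.44 to 5.16 in Z on. Whether erythroid RNA or RNA integrity has a part in the P450 results below was not tested.

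By brightness, 18 of the 39 members lay above the 90th percentile of all probe sets on each of the 12 arrays. These were Cyp1a2, Cyp2a12, Cyp2c23, Cyp2c29, Cyp2c50, Cyp2c54, Cyp2c68, Cyp2c70, Cyp2d9, Cyp2d10, Cyp2d13, Cyp2d22, Cyp2d26, Cyp2e1, Cyp2f2, Cyp2j5, Cyp3a11 and Cyp3a25. Another 6 lay above the median on all arrays without being in that class (Cyp2b10, Cyp2c38, Cyp2c39, Cyp2c55, Cyp2j9 and Cyp3a13), and 8 lay above the median on some arrays and below it on others (Cyp1a1, Cyp2b9, Cyp2c37, Cyp2d34, Cyp2g1, Cyp2j6, Cyp2s1 and Cyp3a44). The remaining 7 stayed below the median on all arrays: Cyp1b1, Cyp2b13, Cyp2b19, Cyp2c65, Cyp2d12, Cyp2j13 and Cyp3a16. Brightness depends on the probes as well as on the RNA, so these classes do not order the genes by abundance. No filter on dim signals was applied, so all 39 members were tested.

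**Figure D1:**
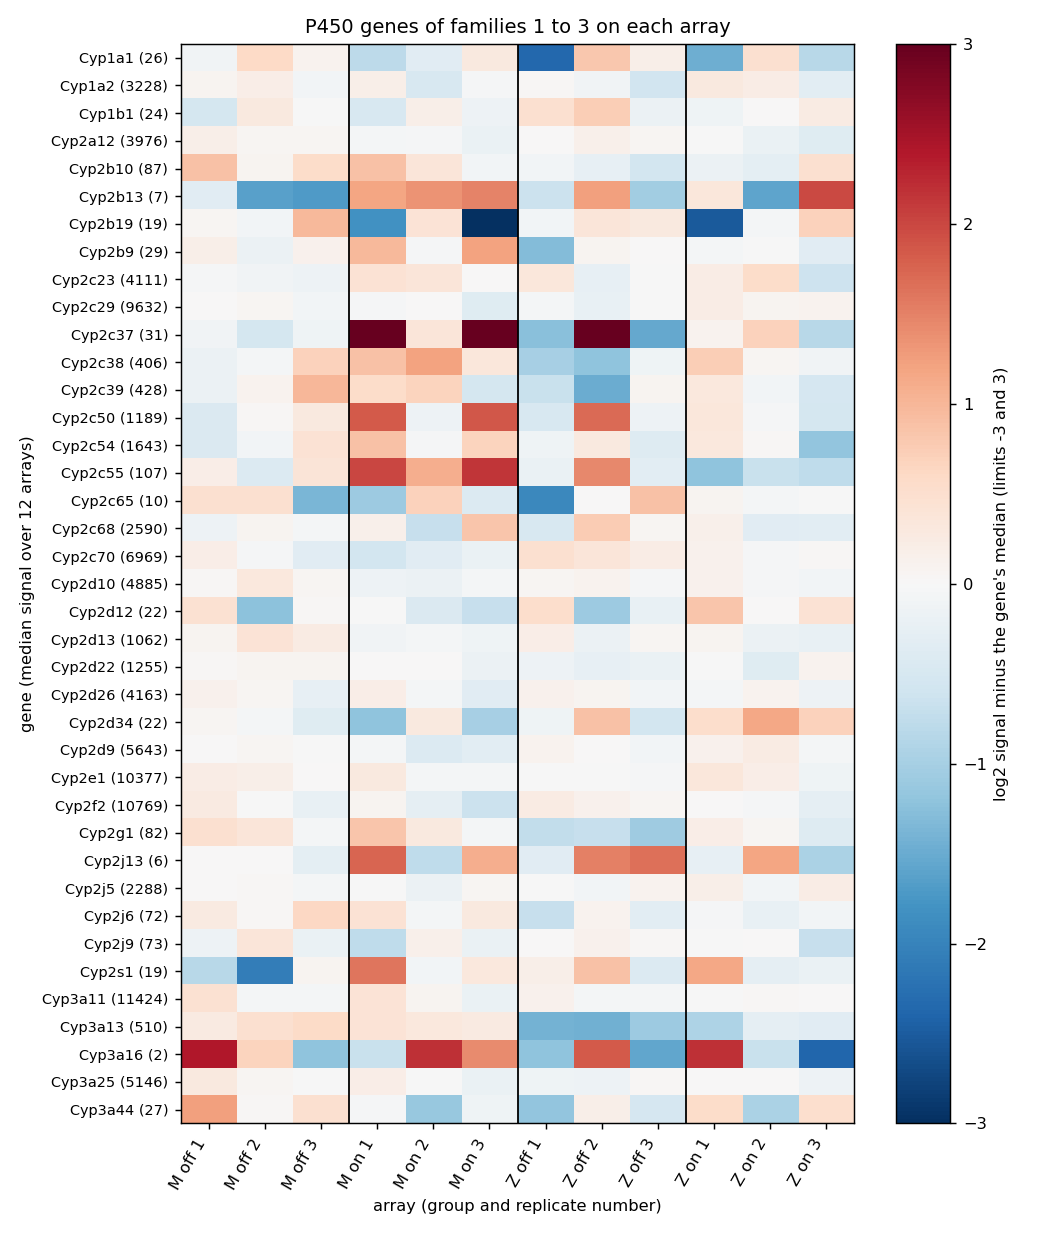
Log2 signal of each of the 39 genes (rows, with the median signal over the 12 arrays in brackets) on each array (columns, grouped as M off, M on, Z off and Z on), relative to the gene's own median, with colours limited to -3 and 3. Most rows with a bright signal are pale throughout, Cyp3a13 is blue over the 6 Z arrays, Cyp2c37 is saturated red on M on replicates 1 and 3 and on Z off replicate 2, and the strongest colours elsewhere belong to rows with low medians.

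Several bright members varied little between mice. Cyp3a11, the main Cyp3a enzyme of mouse liver, gave signals of 15722, 10911 and 10918 in M off, 15129, 12129 and 9968 in M on, 12392, 10907 and 11013 in Z off, and 11410, 11676 and 11439 in Z on. All 4 groups overlapped. Cyp2e1, which oxidises ethanol and acetaminophen around the central vein, gave 12177, 11740 and 10498 in M off, 12622, 10018 and 9944 in M on, 10256, 10225 and 10180 in Z off, and 13193, 11957 and 9420 in Z on. Its 3 Z off arrays lay close together and just below all M off arrays, while the 2 expressing groups spanned the whole range. Cyp1a2, the caffeine-metabolising enzyme and a classic AHR target of the liver, ranged from 2181 to 3930 over the 12 arrays, a ratio of 1.80. Among the other bright members the ratio of the highest to the lowest array ran from 1.31 for Cyp2j5 to 5.19 for Cyp2c50.

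The first question was whether expression of the Z form went with another level of these enzymes. With limma and Benjamini-Hochberg adjustment over 22626 probe sets, 0 of the 39 members passed an adjusted p of 0.05 in Z on against Z off, where 0.0133% of all probe sets did. The smallest adjusted p among the members was 0.604. In bulk liver RNA, fewer cells of a type and less RNA per cell cannot be told apart. At an unadjusted p under 0.05 there were 4 members, against 6.29% of all probe sets, and 9 members had groups that did not overlap, against 11.8% of all probe sets. Of these 9, 4 were higher in Z on (5.22% of all probe sets) and 5 lower (6.61%). In sign, 23 members were higher and 16 lower, with a median log2 difference of 0.03, against -0.03 over all probe sets. That median was -0.02 without Z off replicate 1 and 0.16 without Z off replicate 2. Over the 18 bright members the log2 differences ran from -0.42 for Cyp2c50 to 0.27 for Cyp1a2, and their 95% confidence intervals reached from -1.90 to 1.05.

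The member with the smallest p was Cyp3a13, a Cyp3a enzyme known from intestine as well as liver. Its signals were 186.3, 183.7 and 234.0 in Z off and 262.9, 415.8 and 398.7 in Z on. Each Z on array was above all Z off arrays. The log2 difference was 0.81 (SE 0.21), with an adjusted p of 0.604 in limma's test. Cyp2g1, a P450 best known from the olfactory mucosa, gave 49.3, 50.9 and 39 in Z off and 93.9, 85.0 and 62.9 in Z on, again without overlap, and its log2 difference was 0.79 (SE 0.27, limma adjusted p = 0.706). Cyp2c38, an arachidonic acid epoxygenase, gave 203.8, 174.4 and 373.2 in Z off and 671.4, 423.8 and 377.5 in Z on. The highest Z off array and the lowest Z on array nearly touched, and the log2 difference of 1.01 (SE 0.38) had an adjusted p of 0.743 in limma's test.

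Among members with lower signals in Z on, Cyp2c55, an arachidonic acid hydroxylase inducible through CAR and PXR, gave 93.2, 287.7 and 85.1 in Z off and 46.4, 66.7 and 62.7 in Z on. The groups did not overlap, although Z off replicate 2 stood far above the other 2 arrays of its group. The log2 difference was -1.19 (SE 0.48, limma adjusted p = 0.755). Cyp2c70, which makes muricholic acids and so shapes the mouse bile acid pool, gave 9786, 9030 and 8073 in Z off and 7628, 6775 and 7163 in Z on, without overlap. Its log2 difference was -0.32 (SE 0.19, limma adjusted p = 0.851). Cyp2a12, a steroid and bile acid hydroxylase, differed by -0.26, Cyp2c29 by 0.23 and the dim Cyp2d34 by 0.73 on the log2 scale, with limma adjusted p-values of 0.853, 0.871 and 0.853. Cyp2f2, a naphthalene-metabolising enzyme of lung and periportal liver, and Cyp2j9 were the remaining members without overlap, both with lower signals in Z on.

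In M on against M off, where the wild-type protein was expressed, 0 of 39 members passed the adjusted threshold in limma's test, and 0% of all probe sets did. At an unadjusted p under 0.05 there were 3 members, against 5.18% of all probe sets, and 10 members did not overlap between groups, against 10.5%; 4 of them were higher in M on (5.23% of all probe sets) and 6 lower (5.32%). Here 13 members were higher and 26 lower, with a median log2 difference of -0.09 against -0.01 over all probe sets. The median was -0.17 and -0.03 at the extremes of the settings tried. Of the 18 bright members 14 were lower, 5 of them without overlap, namely Cyp2a12, Cyp2d9, Cyp2d10, Cyp2d13 and Cyp2d22. Of the 1729 probe sets of that brightness class, 871 were lower and 98 were lower without overlap.

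The Cyp2d members in that comparison differed by small amounts. Cyp2d9, a male-predominant testosterone hydroxylase, gave 5696, 5859 and 5626 in M off and 5456, 4277 and 4547 in M on, a log2 difference of -0.27 (SE 0.16, limma adjusted p = 1.00). Cyp2d10 gave 4994, 6102 and 5107 in M off and 4399.6, 4293 and 4695 in M on, also a log2 difference of -0.27 (SE 0.16, limma adjusted p = 1.00). In both genes the lowest M off array was above the highest M on array. Cyp2d13 gave 1128, 1409 and 1258 in M off and 987.0, 1023 and 963.8 in M on, a log2 difference of -0.35, but the second probe set of Cyp2d13 differed by -0.11 and neither passed the test. Cyp2d22 differed by -0.12 at the probe set that stands for it and by -0.08 at its second, and neither passed the test. The second probe sets of Cyp2d13 and Cyp2d22 both overlapped between M on and M off. Between Z on and Z off Cyp2d9 differed by 0.10, Cyp2d10 by -0.05, Cyp2d13 by -0.13 (-0.09 at its second probe set), Cyp2d22 by 0.11 and Cyp2d26 by -0.08 on the log2 scale. The difference between the lines' changes was 0.37 for Cyp2d9 (limma adjusted p = 0.933) and 0.22 for Cyp2d10 (limma adjusted p = 0.945).

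The larger differences in the M line belonged to dim members and to the Cyp2c cluster. Cyp2c55 gave 121.7, 79.5 and 138.2 in M off and 424.1, 228.4 and 472.3 in M on. Every M on array exceeded every M off array. The log2 difference was 1.70 (SE 0.48), with a limma adjusted p of 0.71. Cyp2b13, a female-predominant Cyp2b gene, gave 5.7, 2.3 and 2.2 in M off and 16.3, 18.1 and 20.0 in M on, a log2 difference of 2.56 (SE 0.86, limma adjusted p = 0.826) at signals far below the array medians. Cyp2s1, an epithelial P450, differed by 1.55 (limma adjusted p = 0.942) at signals between 4.5 and 57.7 over all arrays. Cyp2b19 differed by -1.98 and Cyp3a44, another female-predominant gene, by -1.02, and neither passed limma's test (adjusted p = 1.00 for both).

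**Figure D2:**
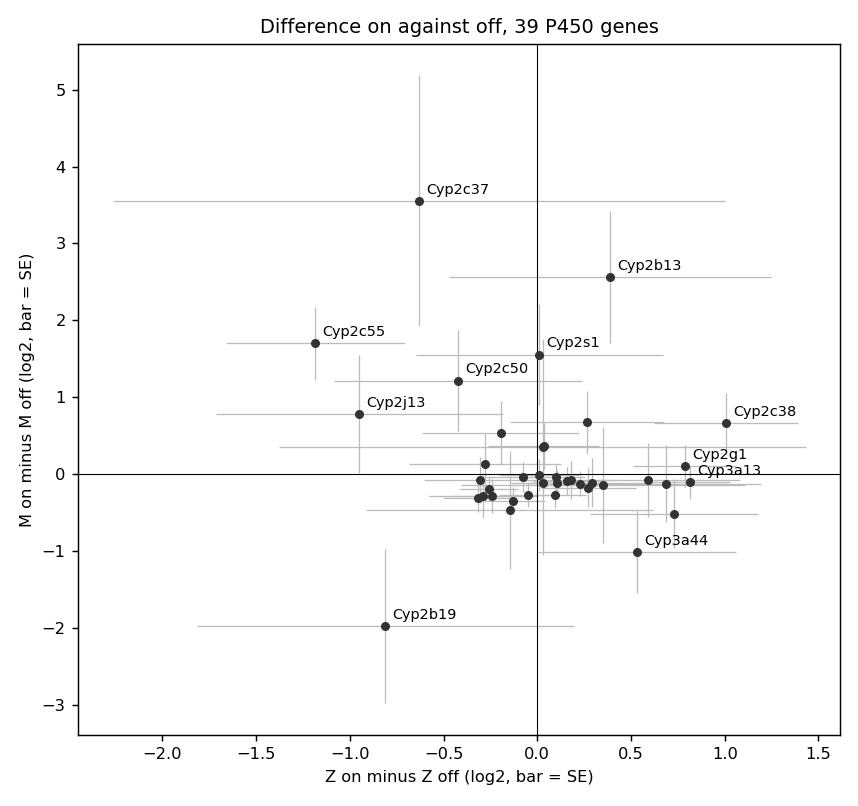
Log2 difference of on against off for the 39 genes in the Z line (horizontal axis) and the M line (vertical axis), with SE bars; genes beyond 0.75 in the Z line or 1 in the M line are named. Most genes lie near the origin, Cyp2c55 lies at -1.19 and 1.70, and Cyp2c37 has the longest bar in the vertical direction (SE 1.63).

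The Z and M changes were then compared directly through their difference, with all 4 groups in the fit. Of the 39 members 0 passed the adjusted threshold in limma's test, as for all probe sets (0%), and 2 had an unadjusted p under 0.05 against 5.18% of all probe sets. These 2 were Cyp2c55, with a Z change lower than the M change by a log2 difference of -2.88 (SE 0.67, limma adjusted p = 0.598), and Cyp3a13, with 0.92 (SE 0.30, limma adjusted p = 0.909). The next smallest p-values belonged to Cyp3a44 (1.55), Cyp2d34 (1.24), Cyp2c37 (-4.19), Cyp2b13 (-2.17), Cyp2g1 (0.68) and Cyp2c50 (-1.64), all with a limma adjusted p of 0.933. With both lines averaged, on against off also gave 0 of 39 calls (0.00884% of all probe sets) and 5 members at an unadjusted p under 0.05, against 5.84%. The 5 were Cyp2c38 (0.83), Cyp2b13 (1.47), Cyp3a13 (0.35), Cyp2c70 (-0.31) and Cyp2g1 (0.44), with limma adjusted p-values from 0.71 to 0.84. Cyp2a12 was the single member whose 6 expressing arrays all lay on one side of the 6 non-expressing arrays, against 0.318% of all probe sets in either direction and 0.15% with lower levels on expression.

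Cyp2a12 gave 4494, 4167 and 4128 in M off and 3986, 4449 and 4110.3 in Z off. It gave 3822, 3884 and 3459.8 in M on and 3966, 3483 and 3080.1 in Z on. Each expressing array was below each non-expressing array, but by a narrow margin. The averaged log2 difference was -0.23 (SE 0.11), which corresponds to 1.17-fold, with a limma adjusted p of 0.851. Cyp2b19 (-1.40) and Cyp2d13 (-0.24) had the next smallest p-values and did not pass limma's test either (adjusted p = 0.864 and 0.866).

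The second question was whether the lines differed before the transgene was expressed. In Z off against M off 1 of 39 members passed limma's test, Cyp3a13, where 0.0707% of all probe sets passed in either direction and 0.0265% with a lower level in Z off. Its M off signals were 607.9, 695.7 and 743.5 (682 ± 68.8, SD, n = 3), and its Z off signals were 186.3, 183.7 and 234.0 (201 ± 28.3, SD, n = 3). The lowest M off array was far above the highest Z off array. The log2 difference of Cyp3a13 was -1.77 (SE 0.21, 95% confidence interval -2.24 to -1.29), which is 3.4-fold, with a limma adjusted p of 0.0344. Z off was also the group with the high erythroid sums (1244 to 1714) and the lowest actin ratios. Of 12 listed clock genes, PAR bZIP transcription factors among them, 6 had an unadjusted p under 0.05 in this comparison. In Z off 1 of these was higher and 5 were lower, against 7.73% of all probe sets at that threshold. The part of these features in the Cyp3a13 difference was not tested. The call was lost on leaving out any 1 of 10 of the 12 arrays, and it was kept without Z on replicate 1 and without Z on replicate 3. Over the 12 omissions the log2 difference stayed between -1.88 and -1.70 and the adjusted p between 0.0202 and 0.142, and with only the 2 groups compared in the fit the adjusted p was 0.21.

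The difference in Cyp3a13 extended to the expressing mice. The M on signals were 664.3, 624.0 and 604.6 (631 ± 30.5, SD, n = 3), and the Z on signals were 262.9, 415.8 and 398.7 (359 ± 83.8, SD, n = 3). All 6 Z arrays lay below all 6 M arrays, as for 0.544% of all probe sets; 0.924% parted the lines in either direction. Averaged over both states the Z line was lower by a log2 difference of -1.30 (SE 0.15, limma adjusted p = 0.0174), a call that 0.0884% of all probe sets reached, 0.0442% with a lower level in the Z line. That call was lost without M off replicate 1, 2 or 3, without Z off replicate 2 and without M on replicate 2, at adjusted p-values up to 0.0688, and was kept in the other 7 omissions. Between the expressing groups alone the log2 difference was -0.84 (SE 0.21, limma adjusted p = 0.445). The comparisons of Cyp3a13 in Z on against Z off and in Z off against M off use the same 3 Z off arrays, so they are not independent.

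The bright Cyp3a genes did not part the lines in this way. Cyp3a11 differed between the lines by -0.10 on the log2 scale with both states averaged (limma adjusted p = 0.888), and its groups overlapped throughout. Cyp3a25 ranged from 4504 to 6295 over the 12 arrays, with overlapping groups. The promoters of Cyp3a13 and Cyp3a11 are shown because these genes of 1 subfamily had different patterns. Both are the 150 bases before the RefSeq start on GRCm38.p6, minus strand, read 5′ to 3′, and capitals mark CAAAGTCC, an HNF4A motif searched on both strands, together with AGGTCA, a nuclear receptor half-site.
Cyp3a13: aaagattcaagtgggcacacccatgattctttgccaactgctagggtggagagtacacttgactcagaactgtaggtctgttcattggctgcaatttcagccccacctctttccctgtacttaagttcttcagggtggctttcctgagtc
Cyp3a11: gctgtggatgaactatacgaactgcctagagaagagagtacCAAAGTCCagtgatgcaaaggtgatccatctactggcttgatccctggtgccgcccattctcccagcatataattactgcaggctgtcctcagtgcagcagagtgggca
They lie at chr5:137921620-137921769 for Cyp3a13 and chr5:145879855-145880004 for Cyp3a11. The Cyp3a11 window holds CAAAGTCC and the Cyp3a13 window holds neither motif. Over the full windows, 250 bases before to 50 after the start, 64.9% of aligned bases were identical (176 of 271). A match of letters describes the window and shows no binding, and the absence of a match says nothing about the factor.

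Genes beside Cyp3a13 were examined to see whether the line difference covered its stretch of the chromosome. Of the 5 genes on either side in RefSeq order, 5 had a probe set (Mepce, Pilra, Pilrb1, Gjc3 and Azgp1), and none passed limma's test in Z off against M off (adjusted p from 0.565 to 0.997). Gjc3 had the largest difference among them, 1.54 on the log2 scale (limma adjusted p = 0.565), opposite in sign to Cyp3a13. With both states averaged Gjc3 differed between the lines by 0.34 (limma adjusted p = 0.834). The lack of calls in these 5 genes does not settle whether the line difference covered the stretch, because a test without a call does not show equal levels.

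**Figure D3:**
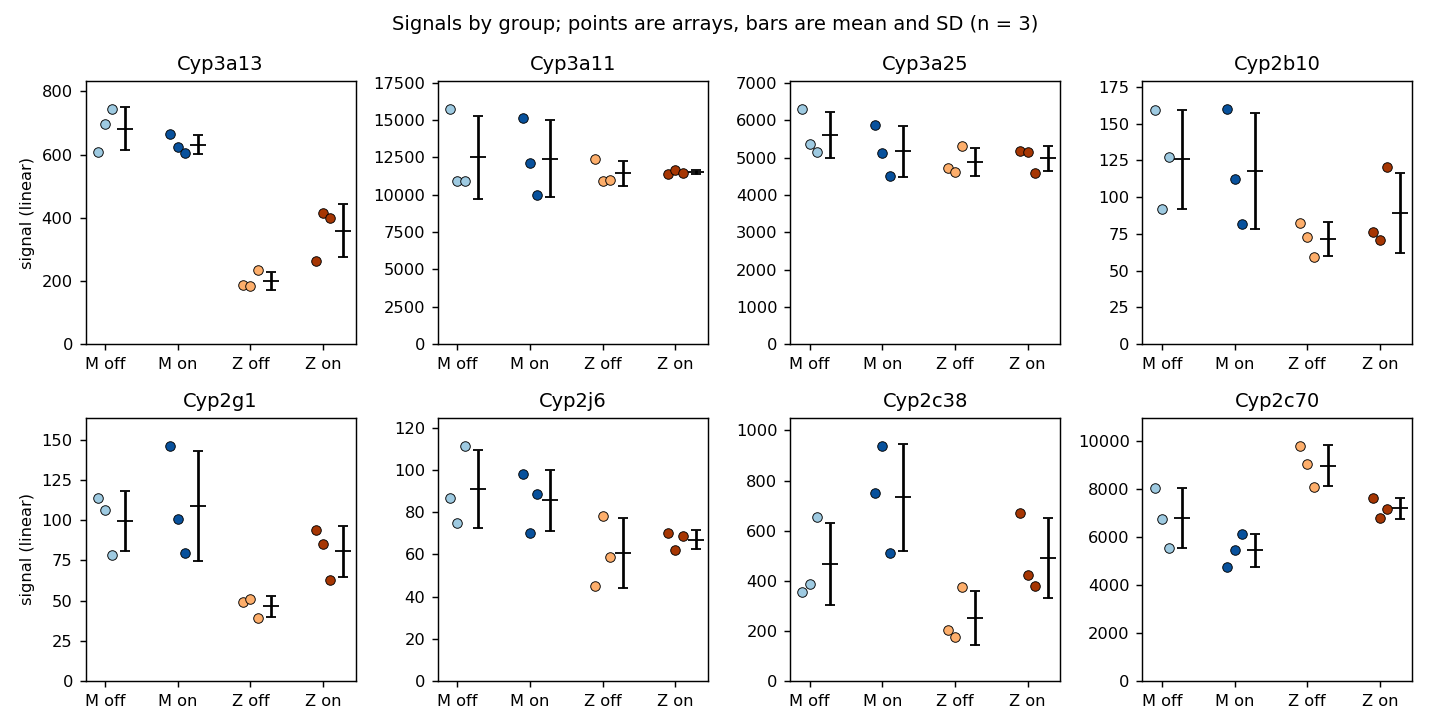
Linear signal of 8 P450 genes in the 4 groups; points are arrays and the black bars are the mean and SD (n = 3). The Cyp3a13 panel shows the Z off arrays between 183.7 and 234.0 and the M off arrays between 607.9 and 743.5, whereas the Cyp3a11 and Cyp3a25 panels show overlapping groups.

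Beyond Cyp3a13, the members with the smallest p in Z off against M off did not pass the adjusted threshold. In all, 5 members had an unadjusted p under 0.05 against 7.73% of all probe sets, all 5 lower in Z off, and 6 members did not overlap against 15.1% of all probe sets, 1 higher in Z off (8.36% of all probe sets) and 5 lower (6.76%). Cyp2g1 gave 114.1, 106.1 and 78.3 in M off and 49.3, 50.9 and 39 in Z off, without overlap, a log2 difference of -1.09 (SE 0.27, limma adjusted p = 0.353). Cyp2b10, the classic CAR target, gave 158.9, 91.6 and 126.9 in M off and 82.2, 73.2 and 59.6 in Z off. Every M off array was above every Z off array. The log2 difference was -0.79 (SE 0.32, limma adjusted p = 0.62), and the other 2 probe sets of Cyp2b10 gave -2.11 and -0.63, of the same sign. The probe set with -2.11 had Z off signals of 7.7, 31.7 and 48.2, and the probe set with -0.63 overlapped between groups. In the same order the 3 probe sets gave 0.29, 1.46 and 0.07 in Z on against Z off, the second without overlap. In M on against M off they gave -0.11, 0.02 and 0.28, and none passed limma's test in either comparison. Cyp2j6 (-0.60), Cyp2c38 (-0.92), Cyp3a44 (-1.09) and Cyp2c39 (-0.99), a retinoic acid hydroxylase, were lower in Z off with limma adjusted p-values from 0.62 to 0.682. Cyp2c70 was the member on the other side, with a log2 difference of 0.42 (limma adjusted p = 0.654) and no overlap between groups.

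With both states averaged, 8 members had an unadjusted p under 0.05, of which 6 were lower and 2 higher in the Z line, against 9.09% of all probe sets. Besides Cyp3a13 these were Cyp2g1 (-0.75), Cyp2c55 (-1.19), Cyp2c38 (-0.75), Cyp2j6 (-0.47) and Cyp2b10 (-0.59) on the lower side, and Cyp2c70 (0.41) and Cyp2d34 (0.81) on the higher side. Their limma adjusted p-values ran from 0.289 to 0.487. The 3 probe sets of Cyp2b10 were all lower in the Z line, by -0.59, -0.73 and -1.40. Over all 39 members 24 were lower and 15 higher in the Z line, with a median log2 difference of -0.06 against 0.02 over all probe sets.

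In Z on against M on, where both forms were expressed, 0 of 39 members passed limma's test (0.00884% of all probe sets did), 3 had an unadjusted p under 0.05 against 6.85%, and 6 did not overlap against 12.1%, 4 higher in Z on (6.07% of all probe sets) and 2 lower (6.02%). Cyp2c55 had the smallest p. Its M on signals of 424.1, 228.4 and 472.3 all exceeded its Z on signals of 46.4, 66.7 and 62.7, a log2 difference of -2.63 (SE 0.48, limma adjusted p = 0.191). Over 21 alternative settings its adjusted p ran from 0.00974 to 0.427, and it passed the threshold in 2 of them, the intensity trend with robust variances (0.00974) and the filter that kept probe sets above the median level (0.0365). Cyp3a13 (-0.84) and Cyp2d34 (1.43) were the other 2 with a small unadjusted p. Cyp2d34, Cyp2d12, Cyp2c29 and Cyp2c70 were higher in Z on without overlap, and none passed the test. Cyp2d9 (0.36), Cyp2b9 (-0.85), Cyp2c37 (-3.32) and Cyp2c50 (-1.25) completed the members with the smallest p-values, with limma adjusted p-values from 0.743 to 0.784.

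The members that represent their subfamilies by the brightest signal and had no small p-value gave the following differences. Cyp1a2 differed on the log2 scale by 0.27 in Z on against Z off and by -0.18 in M on against M off, and Cyp2e1 by 0.16 and -0.09. Cyp2f2 differed by -0.24 and -0.29, Cyp2c29 by 0.23 and -0.12, and Cyp3a11 by 0.01 and -0.01. In the Z line the groups did not overlap for Cyp2f2, lower in Z on, or for Cyp2c29, higher in Z on. Cyp2j5, an epoxygenase of kidney and liver, differed by 0.10 and -0.04, and its second, dimmer probe set by 0.37 and -0.86, where M on replicate 2 gave 123.7 and the other M arrays 581.8 or above. Cyp1b1, an AHR target mostly of tissues other than liver, differed by -0.31 and -0.08 at signals from 16.6 to 39.5, and its other 2 probe sets, at 23.3 or below, gave -1.05 and 0.49 in the M line. Between the lines, with both states averaged, the differences were 0.15 for Cyp2f2, 0.09 for Cyp2c29, 0.09 for Cyp2j5 and 0.31 for Cyp1b1. None of these members passed limma's test in any of the 7 comparisons, with adjusted p-values of 0.708 or above for the probe set that stands for the gene and 0.419 or above for the other probe sets of Cyp1b1 and Cyp2j5.

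The widest ratio of highest to lowest array among the members, 81.2, belonged to Cyp2c37, whose arrays also differed widely within M on and within Z off. It is a gene of the Cyp2c cluster, whose enzymes turn arachidonic acid into epoxides and hydroxy acids. Cyp2c37 gave 28.7, 21.5 and 28.5 in M off, 829.4, 39.6 and 868.7 in M on, 13.0, 772.3 and 10.7 in Z off, and 33.3, 49.9 and 17.4 in Z on. M on replicates 1 and 3 and Z off replicate 2 were at 772.3 or above, and the other 9 arrays were at 49.9 or below. Cyp2c50 gave 881.6, 1211 and 1456 in M off, 4258, 1065 and 4294 in M on, 852.7, 3864 and 1066 in Z off, and 1509.7, 1168 and 827.3 in Z on. The same 3 arrays were highest, and none of the other 9 came near them.

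Across the array, 0.248% of all probe sets (56) had these 3 arrays as their highest, and so did 4 of the 39 members, Cyp2c37, Cyp2c50, Cyp2c55 and Cyp2c68. Cyp2c68 did so by a hair, with 2884 as the lowest of the 3 arrays and 2872 as the highest of the other 9. For Cyp2c55 these values were 287.7 and 228.4. Of all 22626 probe sets, 2 (0.00884%) had signals on those arrays at least 2 times as high as on the other 9 and above 100, and both were members, Cyp2c37 and Cyp2c50. Cyp2c54 gave 3016, 1613 and 2624 in M on and 1509, 2001 and 1249 in Z off, and its 3 arrays overlapped the range of the others (728.8 to 2202). Cyp2c29, Cyp2c38, Cyp2c39 and Cyp2c70 did not have these arrays as their highest. The arrays were picked by Cyp2c37 itself, so these counts are a description, and no test was made of them.

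In RefSeq order the Cyp2c cluster runs over 14 genes from Cyp2c55 to Cyp2c70, and Cyp2c37, Cyp2c54 and Cyp2c50 are neighbours at places 11, 12 and 13. The promoters of Cyp2c37 and Cyp2c50 are shown since these were the 2 genes with the pattern, as the 150 bases before the RefSeq start on GRCm38.p6, plus strand, read 5′ to 3′. Capitals mark bases that differ between them or have no partner in their alignment.
Cyp2c37: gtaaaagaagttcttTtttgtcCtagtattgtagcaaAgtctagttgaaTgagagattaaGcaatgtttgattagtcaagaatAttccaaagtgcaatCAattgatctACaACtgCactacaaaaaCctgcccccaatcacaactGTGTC
Cyp2c50: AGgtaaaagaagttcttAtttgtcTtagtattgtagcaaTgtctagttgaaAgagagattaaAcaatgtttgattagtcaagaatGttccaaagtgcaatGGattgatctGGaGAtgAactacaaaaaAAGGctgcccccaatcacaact
They lie at chr19:39992274-39992423 and chr19:40089529-40089678. Over the full windows 89.5% of aligned bases were identical (264 of 295), against 58.3% to 72.5% for the other pairs among Cyp2c37, Cyp2c50, Cyp2c68, Cyp2c55 and Cyp2c29. Near-identical Cyp2c transcripts can share probes, so it is uncertain whether the Cyp2c37 and Cyp2c50 probe sets measured separate RNAs.

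**Figure D4:**
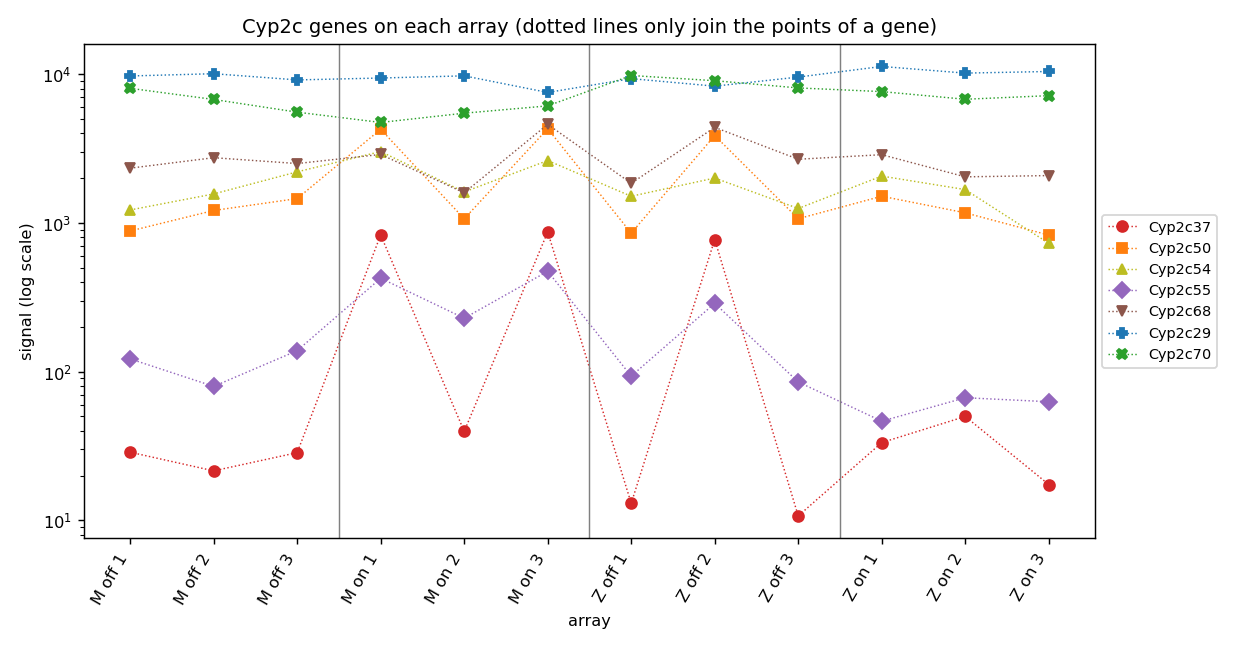
Linear signal on a log axis of 7 Cyp2c genes on each of the 12 arrays, ordered by group; the dotted lines only join points of a gene. Cyp2c37 and Cyp2c50 stand up together on M on replicates 1 and 3 and on Z off replicate 2, while Cyp2c29 and Cyp2c70 do not.

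This spread bears on the group comparisons of the cluster. In M on against M off the log2 difference was 3.55 for Cyp2c37 (SE 1.63, limma adjusted p = 0.974) and 1.22 for Cyp2c50 (SE 0.66, limma adjusted p = 1.00). M on replicate 2 stayed at 39.6 for Cyp2c37 and at 1065 for Cyp2c50, inside or next to the M off range. In Cyp2c55 the same 3 arrays were also the highest, at 424.1, 472.3 and 287.7, but M on replicate 2, at 228.4, was above all M off arrays as well.

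The probe set shared by Cyp2a4 and Cyp2a5 is described apart, because it cannot tell a steroid hydroxylase (Cyp2a4) from the coumarin hydroxylase (Cyp2a5). It gave 1709, 1494 and 1399.5 in M off, 2665, 1475 and 1156 in M on, 1583, 1146 and 1006 in Z off, and 4148, 4457 and 1660.3 in Z on. Z on replicates 1 and 2 were far above all other arrays, and Z on replicate 3 was just above the highest Z off array. The log2 difference between Z on and Z off was 1.36 (SE 0.42, limma adjusted p = 0.671), and between M on and M off it was 0.12.

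The windows below, 75 bases each on the plus strand of GRCm38.p6 (RefSeq), read 5′ to 3′, are shown because Cyp2a4 and Cyp2a5 share nearly all of their promoter, and Cyp2b10 is added as a member on the same chromosome that holds 1 of the motifs; Cyp2b19 is another. Capitals mark TTGCATAA, which joins half-sites of C/EBP and of the PAR bZIP factors DBP, TEF and HLF, and CAAAGTCC, the HNF4A motif. Binding of any of these factors was not tested.
Cyp2a4: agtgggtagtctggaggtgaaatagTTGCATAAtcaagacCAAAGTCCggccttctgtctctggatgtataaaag
Cyp2a5: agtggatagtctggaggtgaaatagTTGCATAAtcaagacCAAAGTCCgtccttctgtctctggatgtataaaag
Cyp2b10: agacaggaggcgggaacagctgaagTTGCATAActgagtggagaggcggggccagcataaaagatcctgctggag
They lie at chr7:26307097-26307171, chr7:26835243-26835317 and chr7:25897575-25897649. Over the full windows Cyp2a4 and Cyp2a5 were identical at 98.3% of aligned bases (294 of 299). TTGCATAA, on either strand, was present in 0.743% of 32851 promoters, and among the 32 members with a promoter in the table it was found in Cyp2b10 and Cyp2b19.

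The levels of Dbp, and those of Tef in the Z line, are given beside it. These genes were picked from the 12 listed, and the levels of Hlf, also a PAR bZIP factor, are not given. Dbp gave 838.7, 1104 and 905.4 in M off, 1556, 1297 and 1094 in M on, 107.1, 51.1 and 23.8 in Z off, and 1365, 1385 and 80.1 in Z on. Z on replicate 3 was thus as low in Dbp as the Z off arrays, and this was the Z on array with the low Cyp2a4/Cyp2a5 signal. Tef gave 895.0, 716.2 and 291.7 in Z on and 284.4, 295.7 and 179.2 in Z off, with the same array low. That array was also the lowest of Z on for other members, such as Cyp1a2 (2590), Cyp2c23 (2671) and Cyp2e1 (9420). It was not the lowest for Cyp2c29 or Cyp2j5. In Z on against Z off Dbp differed by 3.39 and Tef by 1.21 on the log2 scale, both with a limma adjusted p of 0.671. In the M line, M off had Dbp signals of 838.7 or more on all arrays and Cyp2a4/Cyp2a5 signals of 1399.5 to 1709. Both factors vary over the day in liver, the labels give no time of day, and their part in the Cyp2a4/Cyp2a5 signal was not tested. Of the 12 PAR bZIP and clock genes listed, 7 had an unadjusted p under 0.05 in Z on against Z off, 5 higher and 2 lower. None passed the adjusted threshold, where 6.29% and 0.0133% of all probe sets did. In Z off against M off 6 of the 12 had an unadjusted p under 0.05, 1 higher and 5 lower, against 7.73% of all probe sets. There 0 of the 12 passed the adjusted threshold, against 0.0707% of all probe sets.

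**Figure D5:**
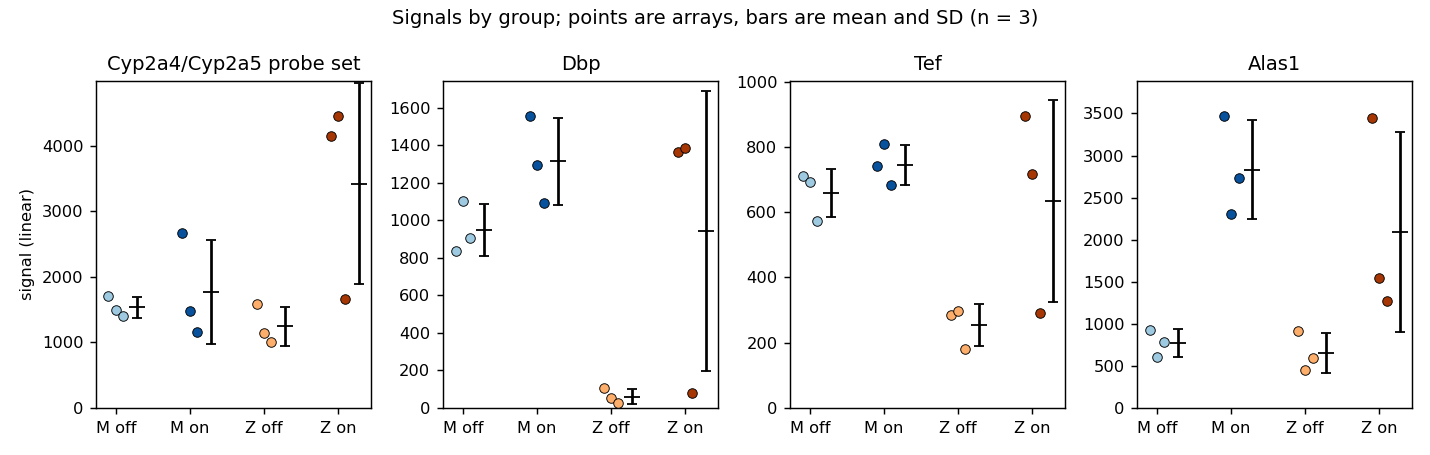
Linear signal of the probe set shared by Cyp2a4 and Cyp2a5, of Dbp, of Tef and of Alas1 in the 4 groups; points are arrays in replicate order from left to right, and the black bars are the mean and SD (n = 3). Z on replicate 3 is the low point of its group in the Cyp2a4/Cyp2a5, Dbp and Tef panels, at 1660.3, 80.1 and 291.7, and also in the Alas1 panel.

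The other motifs searched in the 32 member promoters, from 250 bases before to 50 after the start and on both strands, were found as follows, and none of the motifs contains another. CAAAGTCC was present in 5 members (Cyp2c65, Cyp2c68, Cyp2c70, Cyp3a11 and Cyp3a16; 15.6%) and in 1.42% of all promoters. AGGTCA was present in 11 members (34.4%) and in 16.3% of all promoters, and TATAAA, the TATA box, in 16 members (50%) and in 13.6% of all promoters. GCGTG, the core of the AHR response element, was present in 6 members (18.8%), among them Cyp1a1 and Cyp1b1, and in 32.4% of all promoters. TTANGTAA, a PAR bZIP motif, was present in Cyp2c38 and in 2.32% of all promoters.

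The machinery that serves these enzymes was read from lists of other genes. Of 6 electron transfer partners measured, 0 passed limma's test in Z on against Z off, in M on against M off or between the lines. Of all probe sets 0.0133%, 0% and, between the lines with both states averaged, 0.0884% passed. The reductase Por had no probe set with a single symbol. Cyb5b, a cytochrome b5, had signals of 1323, 1355 and 1298 in M off and 1665, 1930.4 and 1670.5 in Z off, which is a log2 difference of 0.40 (limma adjusted p = 0.578). Of 11 genes of heme synthesis and breakdown, a list without the erythroid Alas2, 0 passed in these comparisons. Alas1, the rate-limiting enzyme of heme synthesis in liver, gave 928.1, 603.9 and 778.3 in M off against 3469, 2305 and 2728 in M on, and 908.8, 455.0 and 592.3 in Z off against 3449, 1546 and 1275 in Z on. All 6 expressing arrays exceeded all 6 non-expressing arrays, as for 0.168% of all probe sets. In either direction 0.318% of all probe sets parted in this way. The averaged log2 difference of Alas1 was 1.74 (SE 0.28), with a limma adjusted p of 0.185.

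Among 19 measured receptors and transcription factors of P450 genes, 0 passed limma's test in any of these comparisons, with a median log2 difference of -0.04 in Z on against Z off and 0.01 in M on against M off. Nr1i2, which encodes PXR, differed by -0.41 in Z on against Z off and by -0.11 in M on against M off. Nr1i3, which encodes CAR, differed by -0.08 and -0.36, and Ahr by 0.33 and -0.25, all within overlapping groups. Of 5 AHR targets outside the P450 families 0 were called, with median log2 differences of 0.49 in the Z line and 0.59 in the M line, while Cyp1a2 differed by 0.27 and -0.18 in the same comparisons. Of 13 CAR and PXR targets outside the families 0 were called, with medians of 0.09 and 0.08. Over all probe sets these medians were -0.03 and -0.01.

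The sex-biased and zonal settings of the liver were listed as well, since many P450 genes follow them. Of 13 male-biased genes outside the families 11 were higher in the Z line with both states averaged, with a median log2 difference of 0.40 and 0 calls. Of 14 female-biased genes 9 were lower, with a median of -0.29 and 0 calls. Over all probe sets 11789 were higher and 10837 lower, with a median of 0.02, and 0.0884% were called. Among the members, the male-predominant Cyp2d9 differed between the lines by 0.17 (limma adjusted p = 0.705), and the female-predominant Cyp2b9 by -0.65 (limma adjusted p = 0.552), Cyp2b13 by -0.01 (limma adjusted p = 0.998) and Cyp3a44 by -0.32 (limma adjusted p = 0.848). Of 16 pericentral markers outside the families 1 passed, Aldh1b1, lower in the Z line by a log2 difference of -1.77 (limma adjusted p = 0.00508), where 0.0884% of all probe sets passed and 0.0442% with a lower level, and of 11 periportal markers 0 passed. The pericentral members Cyp1a2 and Cyp2e1 differed between the lines by -0.05 and -0.04. Of 24 acute phase genes 0 passed in Z on against Z off, with 3 at an unadjusted p under 0.05, against 6.29% of all probe sets.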

How the data were processed

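RNA from the livers of 12 male mice was prepared with TRIZOL and RNEasy and measured on biotin-labelled Affymetrix arrays, as the labels' protocols state. Each deposited value is the intensity of 1 probe set on 1 array, on a linear scale. The submitters' processing notes name RMA, but the deposited intensities are linear and differ in distribution between arrays, and no source used here gives the software behind them. The number of arrays limits the precision. Of 22690 probe sets, 64 array controls were left out and 22626 were tested. Gene symbols came from the platform annotation, looked up in RefSeq (GRCm38.p6, names and gene order only). Promoter sequences came from RefSeq on the same build, which held 32 of the 39 members.

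Signals were converted to log2, with 1 value of 0 set to 0.1, and no filter or further normalization was applied. A model with 1 mean for each of the 4 groups was fitted over the 12 arrays together in R 4.3.3 with limma 3.58.1 (lmFit and eBayes, two-sided). The Benjamini-Hochberg adjustment ran over all 22626 tests, and members with an adjusted p under 0.05 are the called ones. The contrasts were on against off in each line, their difference, Z against M in each state, and both effects averaged. Contrasts share arrays and are not independent.

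The gene lists were chosen with earlier results of these data known, whereas the members were set by gene symbol. The text names, for each contrast, every called member, the 8 members with the smallest unadjusted p and the brightest member of each subfamily, the last not with a value in every contrast. From other lists it gives counts and up to 3 genes. Alternatives were other scalings, a variance trend, a filter, fewer groups, the replicate number as a block, array weights, an offset of 16, the mean of probe sets and each array left out.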

Additional observations from a re-analysis of the deposited data

Results flagged for a closer look

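Cyp2c55 had opposite differences in the lines. All 3 M on arrays (424.1, 228.4 and 472.3) were above all 3 M off arrays (121.7, 79.5 and 138.2), and all 3 Z on arrays (46.4, 66.7 and 62.7) were below all 3 Z off arrays (93.2, 287.7 and 85.1). The difference between the changes was -2.88 on the log2 scale (SE 0.67), with a limma adjusted p of 0.598 over all probe sets, so it did not pass the test. Of all probe sets 149 (0.659%) showed opposite changes without overlap in the lines.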

How the results depend on the processing

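No member was called by limma in Z on against Z off or in M on against M off over 21 alternative settings, nor in the difference of these changes or in on against off averaged over 20; the filter on dim probe sets left 27 of the 39 members to test. In Z off against M off the count fell from 1 to 0 with only the 2 groups of the contrast in the fit and with the replicate number as a block, and with 1 array left out it was 0 to 1; Cyp3a13 had an adjusted p of 0.0719 in the replicate block. With both states averaged the count was 0 to 1 with 1 array left out and stayed at 1 in 8 of 8 other settings, with an adjusted p up to 0.046. In Z on against M on the count was 1, Cyp2c55, with the intensity trend and with the filter on dim probe sets. Causes were not tested, except that the fit of 2 groups holds fewer arrays. Deviations of same-numbered arrays from different groups correlated between -0.0443 and 0.0581, and those of differently numbered arrays between -0.102 and 0.081. Of 12 arrays, 7 correlated best with an array of their own number. These values do not settle whether the replicate numbers pair the mice. Of 1138 comparisons of named members with an alternative, 1119 kept their side of the threshold, 17 lost it, 2 gained it and 0 reversed. All 17 losses were of Cyp3a13, in Z off against M off and between the lines with both states averaged, the only called results. The other named results were uncalled at the start, so their keeping that side says little about stability. Signs differed in 234 of 5532 member and setting pairs (4.23%). The members' median changed sign in Z on against Z off (-0.02 to 0.16) and in on against off averaged (-0.02 to 0.07). In simulated data for Z on against Z off on 22626 probe sets, changes were placed only in probe sets above the median level. Of these, 21% of changes of log2 1 and 83% of changes of log2 2 were called. With fewer true changes than were placed, the adjustment is stricter and these shares fall. In the measured comparison 3 probe sets were called, so the shares may be too high here. Most changes of log2 1, and smaller ones, could thus be missed, and these shares do not cover the dimmer members. Of all values 28.4% lay below a signal of 16, where log2 differences are uncertain.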

Other observations

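Of 14 measured P450 genes of sterol, bile acid, retinoid and vitamin D metabolism, 12 were higher in the Z line with both states averaged. Their median log2 difference was 0.60, with 0 calls. Of all 22626 probe sets 11789 were higher, with a median of 0.02, and 0.0884% were called. Summed signals of the 14 genes were 4010 to 4892 in M off, 4986 to 6858 in M on, 8078 to 8371 in Z off and 8043 to 10343 in Z on. Cyp7b1, an oxysterol hydroxylase that is male-biased in mouse liver, was higher in the Z line by 1.39 (SE 0.22), with a limma adjusted p of 0.0801. Its lines did not overlap, as for 0.38% of all probe sets with higher levels in the Z line. Cyp7b1 is also in the male-biased list, and Cyp17a1 and Cyp39a1 are also in the female-biased list, so these lists are not independent. Of 10 measured family 4 genes, which hydroxylate fatty acids, 5 were higher and 5 lower, with a median of 0.04 and 0 calls. Of 11 epoxide hydrolase, flavin monooxygenase, aldehyde oxidase and carboxylesterase genes, 0 were called in any of the 4 pairwise group comparisons.

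Cyp2d12, Cyp2e1 and Cyp2f2 were the 3 members in which the replicate 1 array was the highest of its group in all 4 groups. The probe set shared by Cyp3a41a and Cyp3a41b ranged from 35.0 to 102.4 over the 12 arrays. The second probe set of Cyp2j5 gave 123.7 on M on replicate 2 and 344.0 to 743.5 on the other 11 arrays, while the brighter one gave 2029 to 2656.

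Of the cell type lists, liver endothelial genes were higher in the Z line in 7 of 10, with a median log2 difference of 0.39, and 5 of them had an unadjusted p under 0.05, against 9.09% of all probe sets. Summed stellate cell markers were 1882 to 1983 in M off, 1199 to 1707 in M on, 1775 to 2028 in Z off and 1090.1 to 1379 in Z on. No list had a called member other than Alas2 in the erythroid list and Aldh1b1 in the pericentral list. Alas2, the erythroid enzyme of heme synthesis, was higher in Z off than in M off by 2.22 on the log2 scale (limma adjusted p = 0.00832). It was also called lower in Z on than in Z off (limma adjusted p = 0.00159), where 0.0133% of all probe sets passed. With both lines averaged it was called lower on expression (limma adjusted p = 0.0158), where 0.00884% of all probe sets passed.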
